A study of Ovis aries with 8 samples.

Results

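Aminoacyl tRNA synthetases are the enzymes that join each amino acid to its tRNA, the adaptor that reads the genetic code. Their genes and those of their scaffold proteins were measured in endothelial cells of the pulmonary artery, cultured from near-term fetal sheep (Ovis aries). Members were taken by gene name, as every row of the deposited table named as a 1-letter amino acid code followed by ARS, with or without a closing 1, 2, A or B, and as EPRS, AIMP1, AIMP2 and EEF1E1. The 35 members reported here, of 15380 rows, were 18 cytosolic synthetases, 15 mitochondrial synthetases (names ending in 2) and 2 non-enzymatic factors, AIMP2 and EEF1E1, of the multisynthetase complex. CARS, CARS2, VARS and AIMP1 matched no row and were not analysed here.

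The series compared 4 control cultures, labelled normothermic, with 4 cultures of a model of intrauterine growth restriction (IUGR), labelled hyperthermic, with 1 one-colour array per culture. Going by the titles, every culture carries a different animal identifier. Control replicate 1 was at passage 5 and control replicates 2 to 4 at passage 6, whereas IUGR replicate 2 was at passage 4 and the other IUGR cultures at passage 3. Growth restriction, the hyperthermic label and passage therefore cannot be told apart. Means of endothelial and fibroblast markers, given below, also differed between the groups. The medium, per the labels, was DMEM with serum for all cultures.

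Each synthetase recognises its own amino acid and tRNA set, and animal cells keep separate enzymes for the cytosol and for the mitochondrion. Some exceptions serve both compartments from 1 gene, as KARS (lysine) and GARS (glycine) do, although the naming rule places them with the cytosolic enzymes. Several cytosolic synthetases sit together in the multisynthetase complex on the scaffold proteins AIMP1, AIMP2 and EEF1E1. When amino acids run short or proteins misfold, the transcription factor ATF4 raises the transcription of many cytosolic synthetase genes along with genes of amino acid synthesis and uptake. In blood vessels some members have further roles, among them fragments of the tryptophan enzyme WARS that restrain vessel growth and a fragment of the tyrosine enzyme YARS that promotes it.

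Values are log2 intensities unless a percentage is named, each ± is a standard deviation over 4 arrays unless marked SE, and differences are IUGR minus control. The number of arrays limits the precision. All 35 members lay above 3.44 on every array, the 95th percentile of 127 olfactory receptor rows, which served as a background level. Control replicate 4 and the IUGR cultures differed from control replicates 1 to 3 in their cell type markers. The score of 14 measured endothelial markers of 21 listed, a mean over genes of the deviation from each gene's own log2 mean, was 0.81 to 1.98 in the controls and -3.63 to 1.02 in IUGR cultures. The defining markers PECAM1 and CDH5 were 3.31 and 2.85 in IUGR replicate 2 and 3.63 and 3.49 in IUGR replicate 4, at or near the background level, and 6 of the 14 markers lay at or below it in each of those arrays. In RNA from whole cultures, fewer cells of a type and less RNA per cell cannot be told apart. Fibroblast marker scores (14 of 15 measured) were -2.86 to 1.25 in control, highest in replicate 4, and 0.86 to 2.34 in IUGR. By group mean, 14 of 14 endothelial markers were lower and 14 of 14 fibroblast markers higher in IUGR, against 50.8% of all rows higher. Their median differences were -3.36 and 3.33, and 0 of either list passed in limma. Mesothelial and epithelial marker scores (12 of 14 measured) reached 2.19 in IUGR replicate 2 and 3.09 in IUGR replicate 4, with -1.02 to -0.76 on the other arrays. Smooth muscle marker scores (10 of 11 measured) were -1.49 to 1.57 and -0.74 to 1.07, and leukocyte marker scores (8 of 8) 0.06 to 0.45 and -0.66 to 0.25.

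No synthetase gene passed the test between the groups. In the limma fit over all 15380 rows, 0 of 35 members had an adjusted p under 0.05, as did 0% of all rows. Their smallest adjusted p was 0.165, for the isoleucine enzyme gene IARS. At an unadjusted p under 0.05 there were 4 higher members and 1 lower, against 7.8% of all rows higher and 7.48% lower. The groups did not overlap for 0 members higher and 1 lower in IUGR, against 4.37% and 3.99% of all rows and 8.36% in either direction. The group mean was higher in IUGR for 24 of 35 members, against 50.8% of all rows, with a median difference of 0.18 against 0.00 over all rows.

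**Figure D1:**
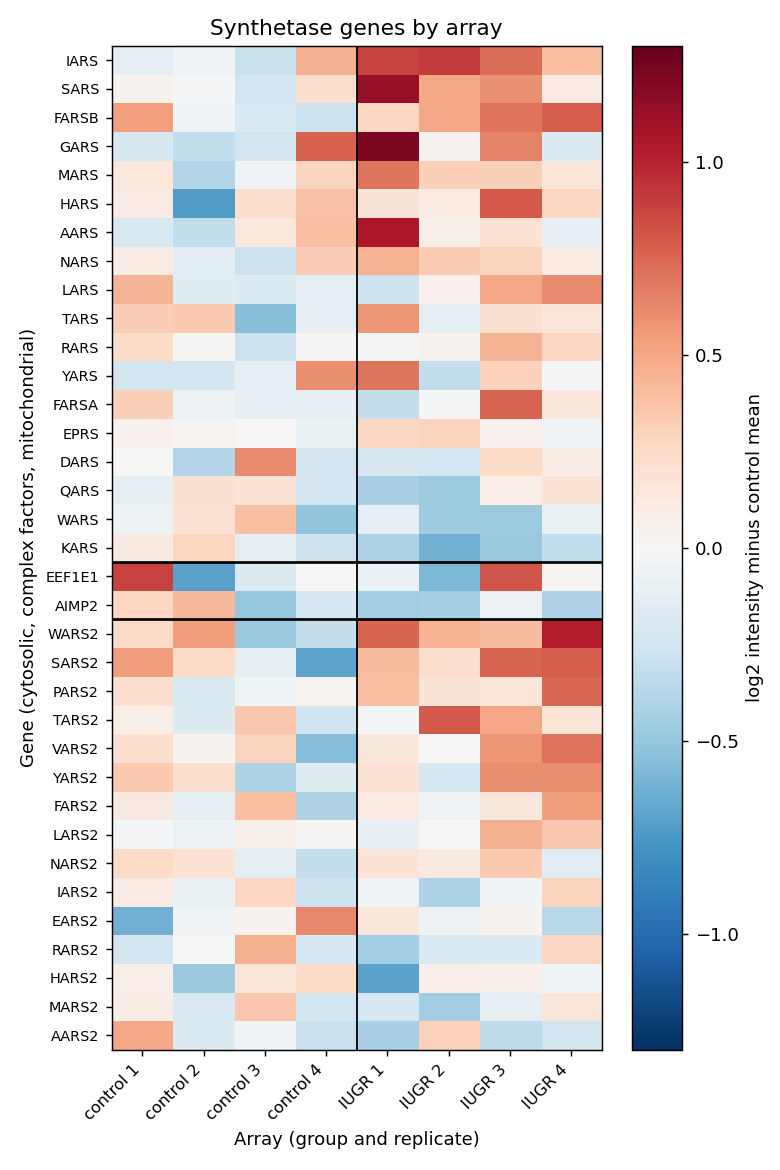
Heat map of the 35 genes (rows) on the 8 arrays (columns), coloured by log2 intensity minus the gene's control mean. Horizontal lines part cytosolic enzymes, complex factors and mitochondrial enzymes, and the vertical line parts the groups. GARS, SARS and AARS are strongest in IUGR replicate 1, and control replicate 4 shares the higher GARS and YARS values.

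Cytosolic synthetases had a higher group mean in IUGR cultures for 14 of 18 genes, against 50.8% of all rows. The median difference was 0.21, and single differences ran from -0.45 for KARS to 0.73 for IARS. In limma 0 of 18 passed, with 3 higher and 1 lower at an unadjusted p under 0.05, against 7.8% and 7.48% of all rows. Without IUGR replicates 2 and 4 the median difference was 0.38, and it was 0.42 once the endothelial score entered the fit. With passage as a covariate it turned to -0.30, with 7 genes higher and 11 lower. Passage differed within a group only through control replicate 1 and IUGR replicate 2, so that value rests on those arrays.

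IARS, which charges tRNA with isoleucine inside the complex, was 7.93, 7.99, 7.76 and 8.51 in control replicates 1 to 4. In IUGR replicates 1 to 4 it was 8.93, 8.96, 8.78 and 8.44. Control replicate 4 lay just above IUGR replicate 4, and otherwise every IUGR value was above every control. The means were 8.05 ± 0.32 and 8.78 ± 0.24 (n = 4 each), a difference of 0.73 ± 0.19 (SE) with a 95% interval of 0.28 to 1.18 (limma adjusted p = 0.165). Without control replicate 4 the IARS difference was 0.88 and passed in limma (adjusted p = 0.0486), the 1 member call among the alternatives run. That fit called 340 of all 15380 rows, beside 1 of the 35 members.

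SARS, the serine enzyme, was 9.05, 8.99, 8.76 and 9.22 in the controls and 10.14, 9.50, 9.59 and 9.12 in IUGR cultures. Its groups overlapped through IUGR replicate 4, which lay below control replicate 4. The difference was 0.58 ± 0.22 (SE), with a limma adjusted p of 0.281. The cytosolic serine enzyme is also known from zebrafish work as a nuclear repressor of the VEGFA gene.

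FARSB encodes the beta chain of the phenylalanine enzyme, which joins FARSA, the alpha chain. FARSB was 8.65, 8.07, 7.92 and 7.85 in the controls and 8.39, 8.63, 8.83 and 8.91 in IUGR cultures, so control replicate 1 was within the IUGR range. FARSB differed by 0.57 ± 0.21 (SE; limma adjusted p = 0.268), which turned to -0.42 with passage as a covariate. FARSA, its partner chain, differed by 0.14 ± 0.24 (SE), with its highest value of 8.05 in IUGR replicate 3. The separate test of whether the chains differ was not run.

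KARS, the lysine enzyme of both compartments, was the 1 member whose groups did not overlap. Its values were 9.54, 9.71, 9.31 and 9.16 in the controls and 9.02, 8.82, 8.95 and 9.11 in IUGR cultures. The means were 9.43 ± 0.24 and 8.98 ± 0.12, and the gap between the nearest arrays, control replicate 4 and IUGR replicate 4, was smaller than either standard deviation. The KARS difference was -0.45 ± 0.13 (SE; limma adjusted p = 0.191).

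GARS, the glycine enzyme, had the largest standard deviation among cytosolic members in each group. It was 8.60, 8.48, 8.57 and 9.58 in the controls and 10.03, 8.85, 9.45 and 8.62 in IUGR cultures. In control replicate 4 GARS stood at 170.6% of the geometric mean of the controls, and in IUGR replicate 1 at 234%. Its difference of 0.43 ± 0.38 (SE; limma adjusted p = 0.659) lay within the spread of the groups. MARS, the methionine enzyme, was 7.84, 7.31, 7.65 and 7.98 in the controls and 8.39, 8.01, 8.00 and 7.85 in IUGR cultures, which overlapped. MARS differed by 0.37 ± 0.18 (SE; limma adjusted p = 0.385).

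**Figure D2:**
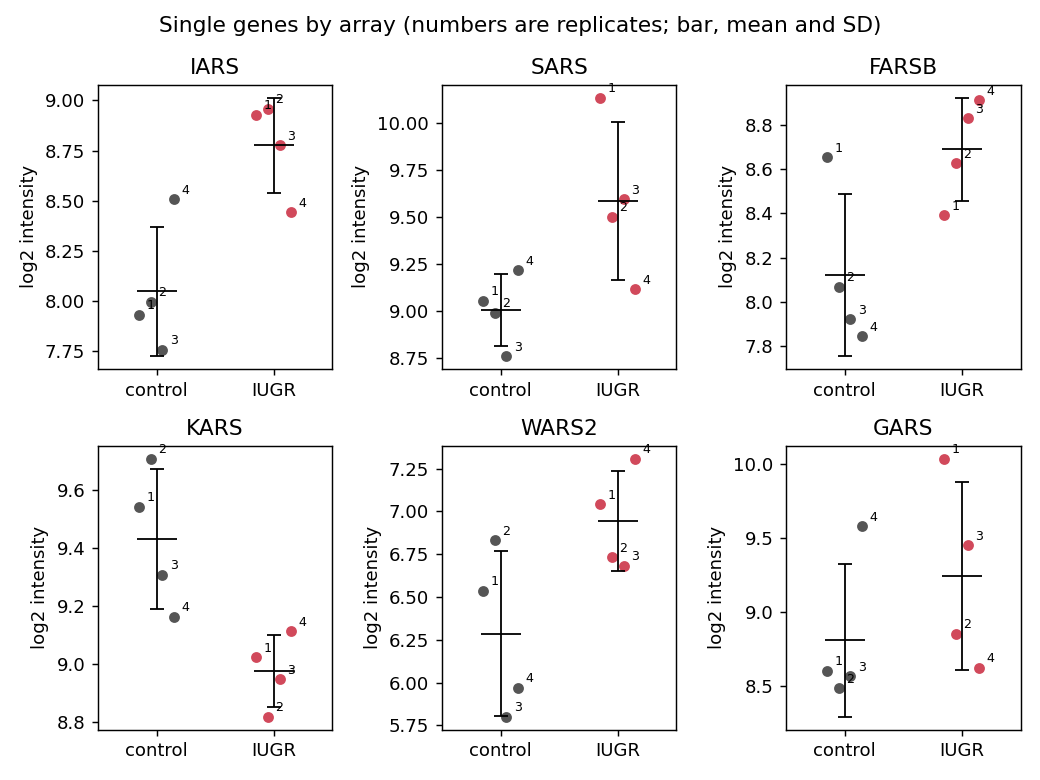
Log2 intensity of IARS, SARS, FARSB, KARS, WARS2 and GARS on each array, numbered by replicate, with bars for the mean and standard deviation of 4 arrays. Only the KARS groups are fully apart among these panels, and IUGR replicate 1 is the top array for SARS and GARS. Vertical axes are set gene by gene and do not start at 0.

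The remaining cytosolic enzymes differed by less. Higher means were found for HARS (histidine, 0.33), AARS (alanine, 0.30), NARS (asparagine, 0.30), LARS (leucine, 0.23), TARS (threonine, 0.20), RARS (arginine, 0.18), YARS (tyrosine, 0.16) and EPRS (0.14). EPRS is the fused enzyme for glutamate and proline. It had the smallest standard error of all 35 members, at 9.39 ± 0.06 in the controls and 9.53 ± 0.16 in IUGR cultures, and an interval of -0.06 to 0.34. DARS (aspartate) differed by -0.02, QARS (glutamine) by -0.15 and WARS (tryptophan) by -0.29. These 11 genes did not pass in limma, with adjusted p of 0.397 to 1. The 95% intervals of 17 of the 18 cytosolic genes reached beyond a difference of 0.5 in size, so these arrays do not settle differences of that size for them.

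**Figure D3:**
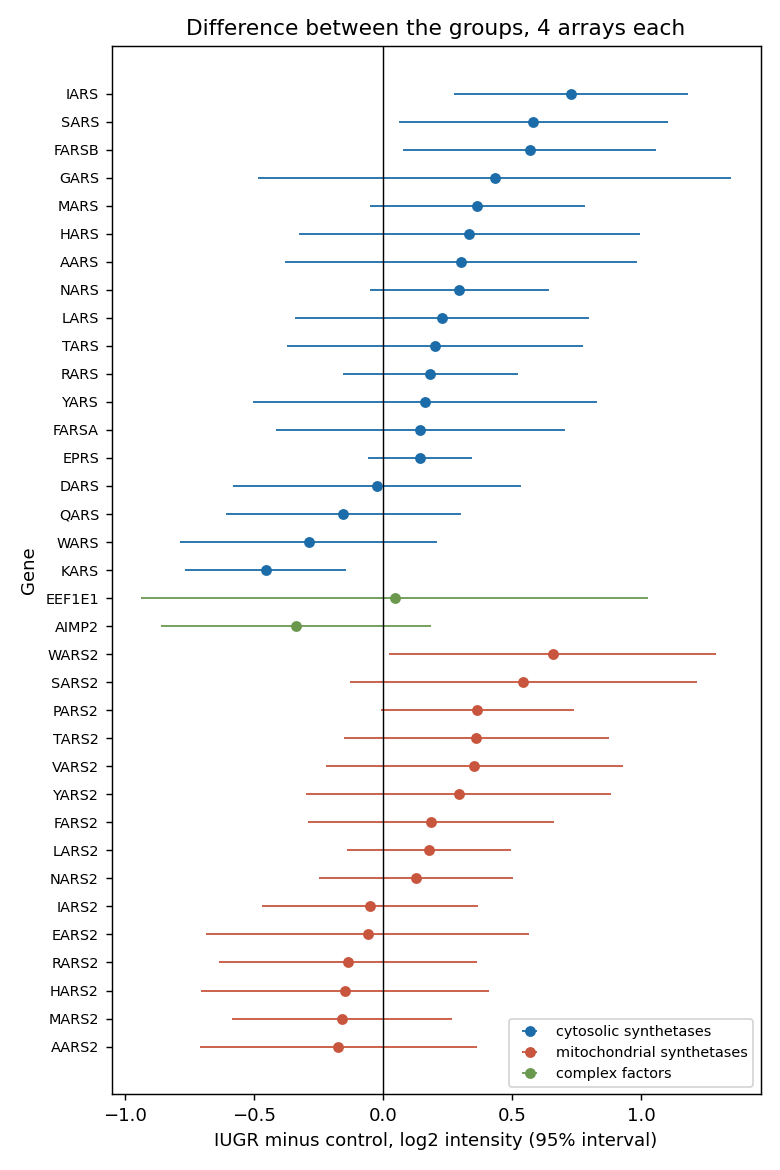
Difference in log2 intensity, IUGR minus control, for each of the 35 genes (points) with its 95% interval from limma (lines), 4 arrays per group. The intervals of IARS, SARS, FARSB, KARS and WARS2 leave out 0 before adjustment, and none of the 35 passes after it.

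The 2 complex factors differed in opposite directions as analysed, and both were lower under 6 of the alternatives run. These were quantile normalization, median centring, passage as a covariate, and leaving out control replicate 2, control replicate 3 or IUGR replicate 3. AIMP2, the scaffold that holds the complex together, was 7.56, 7.71, 6.79 and 7.06 in the controls and 6.83, 6.85, 7.21 and 6.89 in IUGR cultures. AIMP2 differed by -0.34 ± 0.22 (SE; limma adjusted p = 0.520). EEF1E1, also called AIMP3, was 7.21, 5.63, 6.15 and 6.31 in the controls and 6.23, 5.74, 7.14 and 6.36 in IUGR cultures. Its highest arrays, control replicate 1 and IUGR replicate 3, belonged to different groups, and its difference was 0.04 ± 0.41 (SE), which turned to -0.0018 after quantile normalization and -0.0016 after median centring. Leaving out 1 array moved EEF1E1 between -0.213 and 0.339, and with passage as a covariate it was -2.47 ± 0.80 (SE; limma adjusted p = 0.575). The 8 measured synthetases of the complex (DARS, EPRS, IARS, KARS, LARS, MARS, QARS and RARS) had a median difference of 0.16, with 5 higher and 3 lower. The 10 cytosolic synthetases outside it had 0.30, with 9 higher and 1 lower. This split and its lists were made after the values were seen and were not tested.

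Mitochondrial synthetases serve the translation of the few proteins encoded by mitochondrial DNA. Their group mean was higher in IUGR cultures for 9 of 15 genes, against 50.8% of all rows. The median difference was 0.18, with a range of -0.17 to 0.66. Without IUGR replicate 3 the median was 0.084, with log2(value + 32) 0.098 and after quantile normalization 0.12. In limma 0 of 15 passed, and 1 was higher and 0 lower at an unadjusted p under 0.05, against 7.8% and 7.48% of all rows. With passage as a covariate the median was -0.30, with 4 genes higher and 11 lower.

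WARS2, the mitochondrial tryptophan enzyme, is known from rat and zebrafish work to affect the growth of blood vessels of the heart. It was 6.54, 6.83, 5.80 and 5.97 in the controls and 7.04, 6.73, 6.68 and 7.31 in IUGR cultures. Control replicate 2 lay above IUGR replicates 2 and 3, so the groups overlapped. WARS2 differed by 0.66 ± 0.27 (SE), with an interval of 0.02 to 1.29 and a limma adjusted p of 0.316. With passage as a covariate the WARS2 difference turned to -0.11.

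SARS2, for serine, was 6.22, 5.94, 5.56 and 4.99 in the controls and 6.08, 5.90, 6.43 and 6.47 in IUGR cultures. Control replicate 4 was its lowest array, the groups overlapped, and SARS2 differed by 0.54 ± 0.28 (SE; limma adjusted p = 0.419). The SARS2 difference was 0.31 without control replicate 4 and turned to -0.89 with passage as a covariate. PARS2, for proline, was 4.87, 4.45, 4.59 and 4.68 in the controls and 5.03, 4.81, 4.80 and 5.39 in IUGR cultures, with only control replicate 1 inside the IUGR range. PARS2 differed by 0.36 ± 0.16 (SE; limma adjusted p = 0.336), which turned to -0.33 with passage as a covariate. TARS2, for threonine, was 6.18, 5.92, 6.45 and 5.85 in the controls and 6.09, 6.90, 6.60 and 6.26 in IUGR cultures. These groups overlapped, and TARS2 differed by 0.36 ± 0.22 (SE; limma adjusted p = 0.482).

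Among the other mitochondrial enzymes VARS2 (valine), YARS2 (tyrosine), FARS2 (phenylalanine), LARS2 (leucine) and NARS2 (asparagine) had higher means, by 0.13 to 0.35. IARS2 (isoleucine), EARS2 (glutamate), RARS2 (arginine), HARS2 (histidine), MARS2 (methionine) and AARS2 (alanine) had lower means, by -0.17 to -0.05. Mitochondrial enzymes were lowest in control replicate 4 for 5 of 15 genes, and their median there was -0.26 relative to the control mean. That median was 0.10, 0.0040, 0.15 and 0.28 in IUGR replicates 1 to 4. The median over 18 proliferation genes was also low in control replicate 4, at -1.21, and was lowest in IUGR replicate 1, at -1.73. The part of proliferation in the synthetase values was not tested.

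Cytosolic and mitochondrial genes for the same amino acid could be set beside each other in 14 pairs, with FARS2 paired to both phenylalanine chains and EARS2 to EPRS. In 7 pairs both members differed in the same direction and in 7 in opposite directions. The cytosolic member had the higher difference in 10 pairs. SARS and SARS2 were both higher in IUGR cultures, by 0.58 and 0.54. IARS and IARS2 parted, at 0.73 and -0.05, and WARS and WARS2 parted the other way, at -0.29 and 0.66. The difference between partners was not tested.

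**Figure D4:**
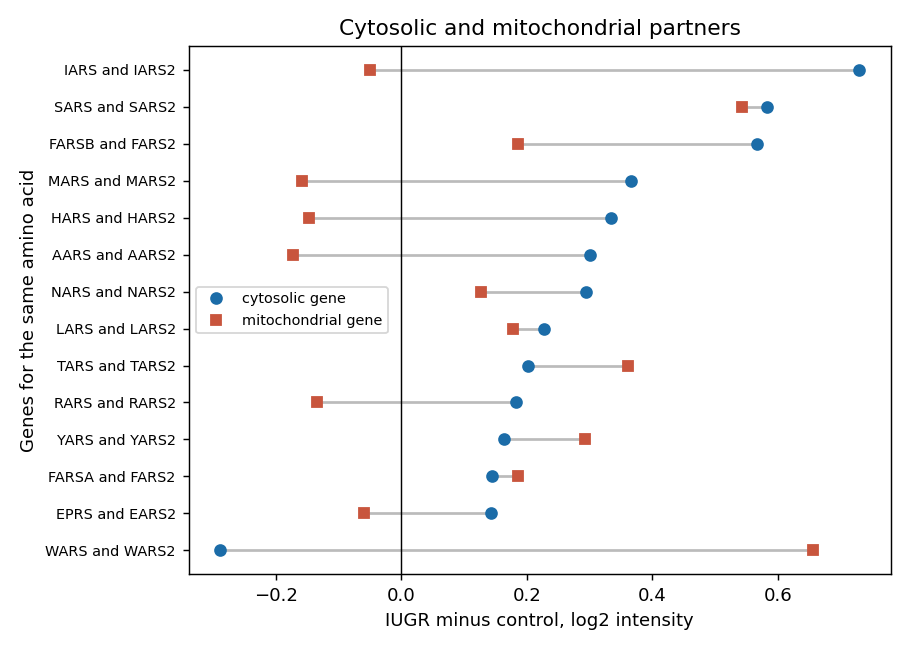
Difference in log2 intensity, IUGR minus control, of the cytosolic gene (circles) and the mitochondrial gene (squares) for the same amino acid in 14 pairs, joined by lines. SARS and SARS2 lie close together, and WARS and WARS2 lie farthest apart.

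Cytosolic synthetases also differed between cultures of the same group. For 11 cytosolic genes known as ATF4 targets in mammalian cells (AARS, EPRS, GARS, IARS, LARS, MARS, NARS, SARS, TARS, WARS and YARS), the median relative to the control mean was 0.69 in IUGR replicate 1. It was 0.07, 0.29 and 0.10 in IUGR replicates 2 to 4, and 0.29 in control replicate 4 against -0.18 to 0.05 in the other controls. IUGR replicate 1 was the highest of all arrays for 7 of these 11 genes. The 7 other cytosolic genes had -0.20 in that culture, where 0 of 7 were highest, and their largest median was 0.44 in IUGR replicate 3. This division was drawn up after the values were seen and has no test. Its members differed between the groups by a median of 0.30, with 10 of 11 higher, against 0.14 for the other cytosolic genes, with 4 of 7 higher.

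Single genes of the 11 differed in where they were high and low. AARS was 9.23 in IUGR replicate 1, 8.57 in control replicate 4 and 7.85 to 8.37 on the other arrays, and YARS was 7.75 in IUGR replicate 1, 7.67 in control replicate 4 and 6.74 to 7.36 elsewhere. LARS went the other way, with its lowest value of all arrays, 7.22, in IUGR replicate 1. WARS and EPRS had their lowest values in control replicate 4, at 8.70 and 9.30, and TARS was 9.08 there, below its control mean. These 6 genes were picked after their values were seen. Fibroblast marker scores were 2.34, 1.89, 1.49 and 0.86 in IUGR replicates 1 to 4, 1.25 in control replicate 4 and -2.86 to -2.27 in the other controls. Smooth muscle marker scores were 1.07, 0.80, 0.43 and -0.74 in IUGR replicates 1 to 4, 1.57 in control replicate 4 and -1.49 to -0.78 in the other controls. IUGR replicate 1 had the highest fibroblast score and the highest ATF4-target synthetase median, 2.34 and 0.69, and control replicates 1 to 3 the lowest of both. IUGR replicate 2 had a higher fibroblast score than control replicate 4 and a lower ATF4-target synthetase median, 0.07 against 0.29. The part of these markers in the synthetase values was not tested.

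**Figure D5:**
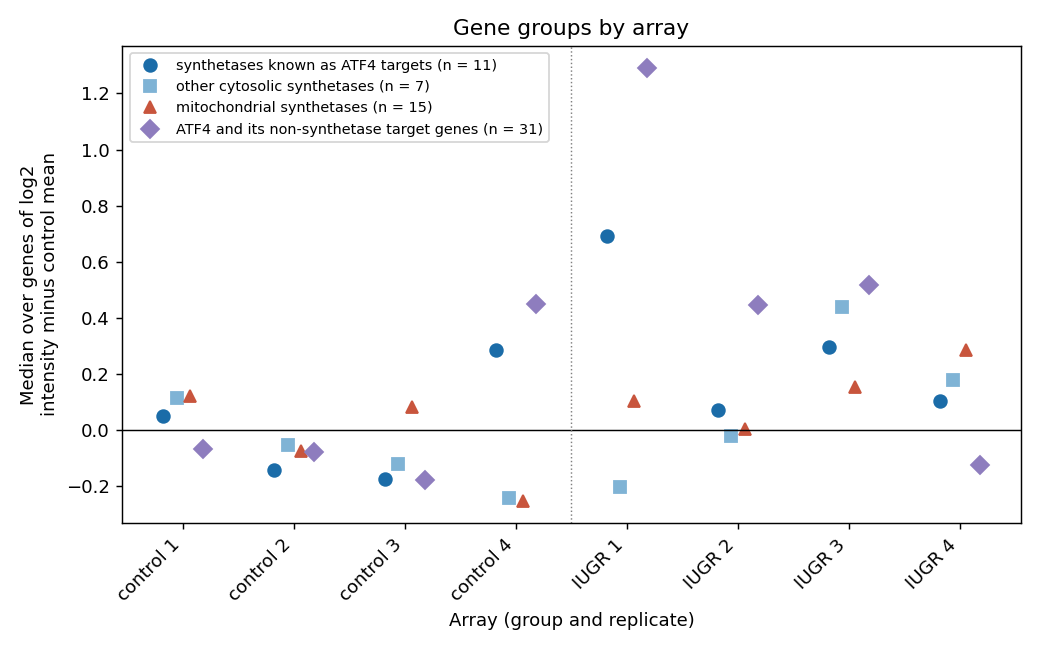
Median over genes of log2 intensity minus the control mean, for each array, in 11 synthetase genes known as ATF4 targets, 7 other cytosolic synthetase genes, 15 mitochondrial synthetase genes and 31 further ATF4 genes. The ATF4 genes reach 1.29 and the ATF4-target synthetases 0.69 in IUGR replicate 1, where the other cytosolic synthetases are at -0.20.

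ATF4 and its targets other than synthetases were measured for 31 of 36 listed genes, of which 25 had a higher group mean in IUGR cultures, against 50.8% of all rows. In limma 0 passed, and 7 were higher and 0 lower at an unadjusted p under 0.05, against 7.8% and 7.48% of all rows. The median difference was 0.54 against 0.00 over all rows. By array the median relative to the control mean was 1.29, 0.44, 0.52 and -0.13 in IUGR replicates 1 to 4 and 0.45 in control replicate 4. ASNS, asparagine synthetase, which makes the amino acid that NARS loads, was 10.22, 8.40, 9.18 and 7.08 in IUGR replicates 1 to 4 and 7.41 to 8.52 in control. IUGR replicate 4 therefore lay below every control for ASNS, and IUGR replicates 1 and 3 above every control. ASNS was chosen after its values were seen.

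The members of that list with the smallest p were GPT2, SLC3A2, PHGDH and DDIT4. GPT2, an alanine aminotransferase, was 5.66 ± 0.32 in the controls and 7.18 ± 0.55 in IUGR cultures (limma adjusted p = 0.115). SLC3A2, the shared heavy chain of several amino acid transporters, was 8.00 ± 0.40 and 9.37 ± 0.58. PHGDH, the first enzyme of serine synthesis, was 6.76 ± 0.56 and 8.11 ± 0.54. The groups of these 3 genes, of 31 measured, did not overlap, against 4.37% of all rows apart and higher in IUGR. DDIT4, an inhibitor of mTORC1 signalling, differed by 0.80 ± 0.26 (SE). ATF4 itself was 10.06 to 10.40 in the controls and 10.03 to 10.74 in IUGR cultures, highest in IUGR replicate 1. None of the 16 measured kinases and initiation factors of the integrated stress response (18 listed), which lie upstream of ATF4, passed. EIF2B2, a subunit of the exchange factor eIF2B, differed by -0.67 ± 0.24 (SE; limma adjusted p = 0.268), and the median over that list was 0.03. The others of its 4 with the smallest p were EIF2B1, the kinase EIF2AK1 and the adaptor NCK1, at 0.36, 0.37 and 0.19.

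Among enzymes that act beside the synthetases, DTD2 and SEPSECS had groups that did not overlap, without a call. They were 2 of 9 measured genes on this list (11 listed), against 4.37% of all rows apart and higher in IUGR. Of the 9, 7 had higher means, against 50.8% of all rows, and 2 were higher and 0 lower at an unadjusted p under 0.05, against 7.8% and 7.48%. TARSL2, 1 of those 7 at a difference of 0.10, lay under the background level of 3.44 on every array. DTD2, a deacylase that frees mischarged tRNAs, was 5.04, 4.10, 5.96 and 5.78 in the controls and 8.22, 8.16, 7.20 and 8.34 in IUGR cultures. DTD2 differed by 2.76 ± 0.47 (SE; limma adjusted p = 0.101). SEPSECS, which completes the selenocysteine charged on its tRNA, was 4.46, 4.27, 4.99 and 4.28 in the controls and 5.32, 5.70, 5.34 and 6.29 in IUGR cultures, again apart. SEPSECS differed by 1.16 ± 0.27 (SE; limma adjusted p = 0.137). DTD1 and PSTK differed by -0.35 and 0.15. The amidotransferase that makes mitochondrial glutaminyl-tRNA was measured through PET112 and QRSL1, which differed by 0.35 and 0.04.

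Genes that make, trim and export tRNA were called in no case either. Of 22 measured genes of RNA polymerase III and its factors (24 listed), which transcribe tRNA genes, 12 had higher means, and 2 were higher and 1 lower at an unadjusted p under 0.05. These counts lay near the shares of all rows, 50.8% with higher means and 15.3% with such a p in either direction. POLR3D, a polymerase subunit, was 5.67 ± 0.17 in the controls and 6.62 ± 0.37 in IUGR cultures, with groups that did not overlap (limma adjusted p = 0.123). It was the 1 such gene of the 22, against 4.37% of all rows apart and higher in IUGR. GTF3C6, GTF3C4 and POLR3E differed by 0.37, -0.36 and 0.26. Of 22 measured tRNA processing and export genes (24 listed), 16 had higher means, against 50.8% of all rows. At an unadjusted p under 0.05, 3 were higher and 0 lower, against 7.8% and 7.48% of all rows. PRORP, a row given by gene number and named through RefSeq, encodes the protein that cuts the leading end of mitochondrial tRNAs. It was 5.15 ± 0.82 and 6.36 ± 0.51, and its groups did not overlap (limma adjusted p = 0.283). PRORP was the 1 such gene of the 22 on this list, against the same 4.37% of all rows. XPOT, the exporter of tRNA from the nucleus and also an ATF4 target, differed by 0.25 ± 0.10 (SE), RPP30 by 0.55 and TRNT1 by -0.19.

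The cytosolic elongation factors and mitochondrial translation factors did not pass. Of 5 measured cytosolic elongation factor genes (6 listed), 4 had higher means, against 50.8% of all rows, and the median difference was 0.09. EEF1D, EEF1A2, EEF2 and EEF1G differed by -0.63, 0.78, 0.09 and 0.13. EEF1A2 had an SE of 0.63 and was 6.42 in IUGR replicate 2 against 3.58 to 4.73 in the other IUGR cultures. In control replicate 1 EEF1A2 was 3.42, under the background level of 3.44. EEF2, the translocation factor, was 10.72 ± 0.11 in the controls and 10.80 ± 0.10 in IUGR cultures. Of 9 mitochondrial translation factors 4 had higher and 5 lower means, near the shares of all rows. GFM1, a mitochondrial elongation factor, was 7.88, 7.68, 8.76 and 7.88 in the controls and 7.17, 6.86, 7.46 and 7.62 in IUGR cultures. Those groups did not overlap, for 1 of the 9 genes, against 3.99% of all rows apart and lower in IUGR. GFM1 differed by -0.77 ± 0.28 (SE; limma adjusted p = 0.267). TSFM, MTIF2 and TUFM differed by 0.43, 0.20 and 0.20.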

How the data were processed

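Biotinylated cRNA was hybridised to 1-colour arrays, per the labels' protocols. The deposited values are linear intensity values per gene symbol or NCBI gene number. The steps by which the authors made these intensities (background, probe summary, normalisation) are not stated by the labels or the table. Array medians were 37.7 to 41.1 intensity units. Intensities under the 10th percentile, 5.89, were raised to it before log2. IUGR was compared with control in limma 3.58.1 (R 4.3.3; lmFit, eBayes, two-sided, no covariate), over all 15380 rows and 8 arrays, adjusted by Benjamini-Hochberg, with 0.05 as the threshold. The code was tested on simulated data. Groups came from the treatment label, and replicate numbers pair no arrays. Members, gene lists and tests were chosen with earlier results of these data known. A further row that met the naming rule is not reported here. All 35 reported members were named. Values on all arrays were given for members with an unadjusted p under 0.05, without overlap or among the 10 largest differences, and each list gave up to 4 genes with the smallest p. Further genes are marked or illustrate the ATF4 lists. A RefSeq gene table (ARS-UI_Ramb_v3.0) served names only. It held a current name for 34 members. Lists described after the values were seen are said to be so.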

Additional observations from a re-analysis of the deposited data

Results flagged for a closer look

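Each member was examined in each group for an array set far apart from the other 3, by Dixon's test at the 95% level, in 70 groups of 4 arrays. Chance gives about 5% of groups, and 5 of the 70 were found. GARS was 9.58 in control replicate 4 against 8.48 to 8.60 in the other controls. YARS was 7.67 in control replicate 4 against 6.82 to 6.94. LARS was 7.93 in control replicate 1 against 7.31 to 7.37, and FARSA was 7.59 there against 7.16 to 7.21. AIMP2 was 7.21 in IUGR replicate 3 against 6.83 to 6.89 in the other IUGR cultures.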

How the results depend on the processing

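No paired analysis was possible because replicate numbers only name the cultures. The leading digits of the number in each sample title, whose meaning the labels do not give, were shared by some arrays within and across groups. As a random block they gave 0 rows called, a cytosolic median of 0.21 and a mitochondrial median of 0.18. Single-gene differences kept their direction and their side of the threshold in 756 cases, and the sign turned in 43. No member passed under the alternatives run, other than IARS without control replicate 4, where 340 of 15380 rows passed. The number of rows called, 0 of 15380, became 61 with log2(value + 1), 55 over rows at or above the median row, 10 with 1 row per gene, 1 with a trended prior, 20 with array weights, 304 without 3 cultures (control replicate 4 with IUGR replicates 2 and 4), and 43 at a threshold of 0.1; leaving out 1 array gave 0 to 340. Members called then ranged from 0 to 1 and pathway list genes from 0 to 2. Pathway list genes called were 2 with log2(value + 1), 1 over the brighter rows, 3 without those 3 cultures. The cytosolic median of 0.21 was 0.38 without IUGR replicates 2 and 4, 0.37 without control replicate 4 as well, 0.42 with the endothelial score and -0.30 with passage as a covariate, where the mitochondrial median was -0.30 and that of the complex factors -1.72.

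With passage as a covariate the sign turned for EARS2 (0.97), EEF1E1 (-2.47), FARS2 (-0.41), FARSA (-0.65), FARSB (-0.42), HARS (-0.23), HARS2 (0.10), LARS (-0.80), LARS2 (-0.072), NARS2 (-0.30), PARS2 (-0.33), RARS (-0.44), RARS2 (0.17), SARS2 (-0.89), TARS (-0.87), VARS2 (-0.62), WARS2 (-0.11), YARS (-0.24) and YARS2 (-1.14). It turned for EEF1E1 after quantile normalization (-0.0018) and median centring (-0.0016), for EARS2 (0.060) with array weights, for DARS (0.017) and EARS2 (0.093) without IUGR replicates 2 and 4, for EARS2 (0.301) and FARS2 (-0.0047) without those 3 cultures, and for DARS (0.139), EARS2 (0.052) and IARS2 (0.0072) with the endothelial score. Leaving out 1 array gave a sign change for DARS (-0.149 to 0.184), EARS2 (-0.268 to 0.148), EEF1E1 (-0.213 to 0.339), FARSA (-0.061 to 0.296), HARS2 (-0.309 to 0.035), IARS2 (-0.162 to 0.068), RARS2 (-0.269 to 0.021) and YARS (-0.012 to 0.365). The causes were not tested.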

Other observations

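Genes of leucine sensing and the growth kinase mTORC1, a pathway in which LARS is known as a leucine sensor in mammalian cells, gave no call among 16 measured members (18 listed). Group means were higher in IUGR cultures for 13, against 50.8% of all rows, and lower for 3, with a median difference of 0.14. At an unadjusted p under 0.05, 2 were higher and 1 lower, against 7.8% and 7.48% of all rows. RHEB, the activator of mTORC1, was 9.01, 8.80, 9.02 and 8.99 in the controls and 8.70, 8.18, 8.60 and 8.51 in IUGR cultures. These groups did not overlap, for 1 of the 16 genes, against 3.99% of all rows apart and lower in IUGR. RHEB differed by -0.46 ± 0.12 (SE; limma adjusted p = 0.165). TSC1, which restrains RHEB, differed by 0.64 ± 0.20 (SE), RRAGD by 0.83 and RPTOR by 0.29.

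Genes induced by interferon gamma, a signal that in human cells also raises WARS, were measured for 16 of 19 listed genes. Of these, 7 had higher and 9 lower means, against 50.8% of all rows higher, and the median difference was -0.02. At an unadjusted p under 0.05, 1 was higher and 1 lower, against 7.8% and 7.48% of all rows. On every array 4 of the 16 lay at or below the background level, so their directions carry little. GBP5, an interferon-induced GTPase, was 6.66, 7.10, 6.94 and 5.53 in the controls and 3.88, 3.30, 4.42 and 4.46 in IUGR cultures, with no overlap (difference -2.54 ± 0.42 (SE), limma adjusted p = 0.101). It was the 1 such gene of the 16, against 3.99% of all rows apart and lower in IUGR. The GBP5 value of 3.30 in IUGR replicate 2 was under the background level of 3.44. WARS overlapped between the groups, with 8.70 in control replicate 4 as its lowest array and 9.60 in control replicate 3 as its highest. IFIT1, TAP1 and PSMB8 differed by 0.89, -0.44 and -0.60.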
